A study of Mus musculus with 6 samples.

Results

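The genes described here are 40 genes of the oligodendrocyte lineage and of myelin. They were chosen by name, as the rows of the deposited count table that carry 1 of 40 gene symbols, out of 21899 genes in the table. Of these, 31 mark mature oligodendrocytes or are transcription factors of the lineage, and 9 mark precursors or newly formed oligodendrocytes. The samples were thalamus tissue of 6 male wild-type C57BL/6J mice, taken 6 weeks after irradiation. The mice were 8 to 10 weeks old when purchased. All 6 mice had received a single 50 Gy dose to the left thalamus and, 2 weeks later, 2 µL of an AAV9 vector into the thalamus, so both groups carry the injury and an injected virus. In the 3 RC mice (radiation and control virus) the vector encoded tdTomato alone (GFAP104::tdTomato). In the 3 RN mice (radiation and NeuroD1 virus) it encoded mouse NeuroD1 with tdTomato (GFAP104::mND1-tdTomato). The GFAP104 promoter directs expression to astrocytes, so cells of the oligodendrocyte lineage were not the intended target of the vector. The comparison asks whether the RNA of these genes differed between RN and RC mice. Unirradiated mice were not analysed here.

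Oligodendrocytes arise from dividing precursors that express the receptor Pdgfra and the proteoglycan Cspg4. Precursors leave the cycle, pass through a short newly formed stage marked by Gpr17, Bcas1 and Enpp6, and then switch on Myrf and the myelin genes. Mature cells wrap axons in myelin, a membrane rich in galactolipid and in a small number of very abundant proteins. Ionising radiation is known to deplete precursors and to damage white matter.

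Library totals lay between 16561663 and 18657015 counts. Neurod1 was checked first, and it stood at 4.71, 5.44 and 5.16 CPM (a gene's count scaled to a fixed library total, with edgeR's TMM factors) in RC1 to RC3 and at 66.8, 91.5 and 50.9 CPM in RN1 to RN3. The RN mice were all above the RC mice (log2 fold change 3.77 ± 0.227 SE, adjusted p = 0.00178, from the quasi-likelihood test of edgeR, adjusted by Benjamini-Hochberg over 14956 tested genes). Reads of the vector's Neurod1 and of the endogenous gene cannot be told apart in this count. The 6 tissues also differed in the RNA of markers of neighbouring tissue, and the reason was not tested. Choroid plexus markers (12 of 12 genes fitted lower in RN) summed to between 651 and 10820 CPM in RC mice, highest in RC2, and to between 353 and 395 CPM in RN mice. Hypothalamic markers (12 of 12 tested genes fitted higher in RN) summed to between 129 and 291 CPM in RC mice and to between 448 and 567 CPM in RN mice. No choroid plexus marker was at 0 in any mouse, and of the hypothalamic markers only Agrp was, in RC1.

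All 40 genes passed the filter on low counts, and together they show a tissue with abundant myelin RNA. They held 1.66, 2.09 and 1.75% of all counts in RC1, RC2 and RC3, and 1.77, 1.78 and 1.41% in RN1, RN2 and RN3. RC2 was the highest mouse and RN3 the lowest, and the groups overlapped. The mean shares were 1.83% ± 0.227 in RC and 1.65% ± 0.214 in RN (SD, n = 3 each, two-sided exact permutation test, p = 0.6, where 0.1 is the smallest p that this design allows). Mbp, myelin basic protein, which compacts the myelin membrane, made up between 42.6 and 45.2% of the members' counts in every mouse. Of the markers of Schwann cells, the myelinating cells of peripheral nerve, 7 of 10 passed the filter and summed to between 137 and 159 CPM in RC and between 144 and 176 CPM in RN, 4 fitted higher and 3 lower. Among those that did not pass, Foxd3 was at 0 to 6 raw counts per mouse and Pmp2 at 0 to 2. The part of Schwann cells in the members' counts was not tested.

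Per length of annotated exons, the highest members were genes of mature oligodendrocytes and the lowest were precursor and newly formed genes, while the roles overlapped in between. Mbp stood at 910 ± 143 CPM per kilobase over the 6 mice (SD), Trf at 497 ± 94.8, Mobp at 269 ± 46.9 and Plekhb1 at 221 ± 37.3. The lowest members were Enpp6 at 2.60 ± 0.495, Cspg4 at 2.12 ± 0.265 and Neu4 at 1.20 ± 0.455 CPM per kilobase. Between these ends, the newly formed gene Bcas1 (133 ± 18.8) stood above Mog (73.9 ± 13.3). The mature gene Aspa (4.90 ± 0.840) stood below the precursor gene Ptprz1 (18.2 ± 2.37). Among transcription factors, Olig1 at 96.3 ± 13.0 CPM per kilobase stood above Olig2 at 16.2 ± 2.23.

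In the comparison of groups, 0 of 40 members were called higher and 0 were called lower at an adjusted p under 0.05 and a change of at least 2-fold in edgeR's quasi-likelihood test. Over all 14956 tested genes the called shares were 0.0602% higher and 0.0134% lower (0.0735% in either direction, and the same share without the 2-fold rule). DESeq2's Wald test at the same thresholds also called 0 members, against 0.63% of all genes called higher and 0.548% called lower (1.18% in all). At an unadjusted p under 0.05, 0 members were higher (5.44% of all tested genes) and 2 were lower (6.33%), namely Mobp and Ptprz1. The 2 members Mog and Ptprz1 had every RN mouse below every RC mouse (8.12% of all genes), and 0 had every RN mouse above (8.18%). These shares are no larger than those over all genes. EdgeR adjusted p-values of the members ran from 0.208 to 0.998.

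The 95% intervals give the range of differences that fits these mice. For 38 of 40 members the interval of the RN to RC ratio lay within 2-fold in either direction, against 81.2% of all tested genes. For 30 of 40 members it lay within 1.5-fold, against 8880 of all 14956 tested genes. The exceptions at 2-fold were Gpr17, with an interval from 0.835 to 3.19 times the RC level, and Neu4, from 0.513 to 2.08 times. Fitted log2 fold changes lay between -0.36 and 0.71 with a median of -0.10, beside a median of 0.00 over all tested genes. A fitted value below 0 was found for 30 of 40 members (49.2% of all genes).

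**Figure D1:**
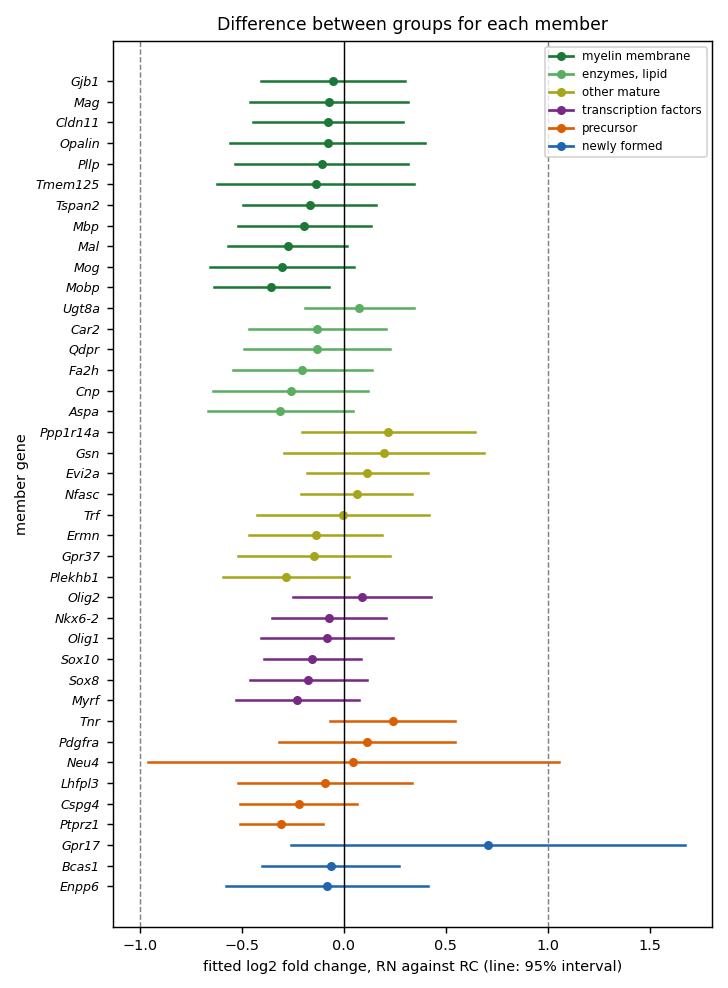
Fitted log2 fold change of each of the 40 members, RN against RC (points), with its 95% interval (lines), coloured by role. Dashed lines mark 2-fold in either direction, which the intervals of Gpr17 and Neu4 alone cross, and the intervals of Mobp and Ptprz1 lie wholly below 0.

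The proteins of the myelin membrane formed the largest role group, and all 11 of its members had a fitted value below 0 (median -0.14). Mbp stood at 6976, 9626 and 8073 CPM in RC1 to RC3 and at 7858, 7740 and 5980 CPM in RN1 to RN3. RC2 was the highest mouse and RN3 the lowest, while RN1 and RN2 lay between RC1 and RC3. Mean expression was 8225 ± 1332 CPM among RC mice against 7192 ± 1052 CPM among RN mice (SD, n = 3), and the log2 fold change was -0.19 ± 0.142 SE (edgeR adjusted p = 0.689).

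Mobp, myelin-associated oligodendrocytic basic protein, another basic protein of compact myelin, had the lowest fitted value of all members. Its level was 1778, 2240 and 2182 CPM in RC mice and 1783, 1671 and 1390 CPM in RN mice. RC2 and RC3 stood above all RN mice, but RC1 lay just under RN1, so the groups overlapped. The log2 fold change was -0.36 ± 0.123 SE, with a ratio between 0.643 and 0.950, an unadjusted p = 0.0194 and an adjusted p = 0.294 in edgeR's quasi-likelihood test.

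Mog, myelin oligodendrocyte glycoprotein, which sits on the outer face of the sheath, was at 129, 161 and 128 CPM in RC mice and at 125, 124 and 88.9 CPM in RN mice. The groups did not overlap, but RN1 and RN2 lay close under RC1 and RC3, and the difference was carried mainly by RC2 and RN3 (log2 fold change -0.30 ± 0.153 SE, edgeR adjusted p = 0.502). Mal, a raft protein of compact myelin, was at 302, 397 and 331 CPM in RC mice and at 303, 301 and 247 CPM in RN mice, again with RC2 highest and RN3 lowest (log2 fold change -0.27 ± 0.127 SE, edgeR adjusted p = 0.459). The other 7 had fitted values between -0.17 and -0.05 and adjusted p-values of at least 0.741 in edgeR's quasi-likelihood test. They were Mag (myelin-associated glycoprotein, on the axon-facing membrane), Cldn11 (the tight junction protein of myelin), Gjb1 (the gap junction protein connexin 32), the tetraspanin Tspan2, plasmolipin (Pllp), Opalin and Tmem125. RN3 had the lowest level of the 6 mice in all 7, though for Cldn11 it stood about level with RC1.

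**Figure D2:**
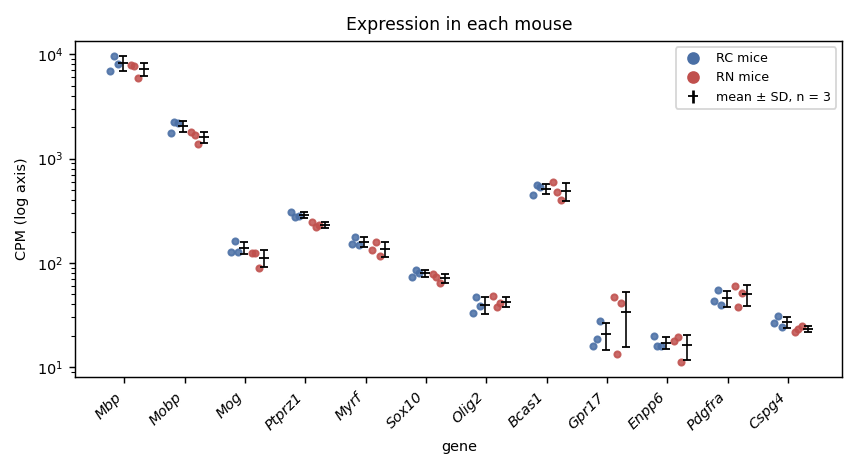
Expression of 12 members in each mouse, in TMM-scaled CPM on a log axis, with RC mice in blue, RN mice in red and the mean ± SD of 3 mice in black. The groups overlap for each gene shown except Mog and Ptprz1, and Gpr17 shows the widest scatter among RN mice.

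In the genes of myelin enzymes and lipid synthesis, 5 of 6 fitted values were below 0 (median -0.17). Aspa, aspartoacylase, which frees acetate from N-acetylaspartate for lipid synthesis, was at 33.4, 34.7 and 28.9 CPM in RC mice and at 30.3, 27.1 and 20.7 CPM in RN mice. RN1 lay above RC3, so the groups overlapped (log2 fold change -0.31 ± 0.154 SE, edgeR adjusted p = 0.496). Cnp, the cyclic nucleotide phosphodiesterase that keeps cytoplasmic channels in myelin open, was at 627, 858 and 618 CPM in RC mice and at 639, 647 and 471 CPM in RN mice. RC2 stood above the other 5 mice and RN3 below them (log2 fold change -0.26 ± 0.165 SE, edgeR adjusted p = 0.621). Fa2h, which makes the 2-hydroxylated fatty acids of myelin galactolipid, was at 57.0, 82.1 and 69.4 CPM in RC mice and at 60.6, 67.6 and 52.7 CPM in RN mice. The groups overlapped here too (log2 fold change -0.20 ± 0.148 SE, edgeR adjusted p = 0.685). The others were Ugt8a (the galactosyltransferase that makes galactocerebroside), Car2 (carbonic anhydrase 2) and Qdpr (a dihydropteridine reductase), with adjusted p-values of at least 0.817 in edgeR's quasi-likelihood test.

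The 8 remaining genes of mature oligodendrocytes were split, 4 with fitted values above 0 and 4 below (median 0.03). Plekhb1, a membrane-bound protein with a pleckstrin homology domain, was at 759, 1053 and 895 CPM in RC mice and at 797, 779 and 647 CPM in RN mice, with RC1 below RN1 and RN2 (log2 fold change -0.28 ± 0.134 SE, edgeR adjusted p = 0.473). Ppp1r14a, an inhibitor of myosin phosphatase, was at 18.0, 22.7 and 22.2 CPM in RC mice and at 30.6, 23.5 and 19.2 CPM in RN mice, with RN3 inside the RC range (log2 fold change 0.22 ± 0.184 SE, edgeR adjusted p = 0.739). Ermn, ermin, a cytoskeletal protein of late myelination, was at 121, 112 and 128 CPM in RC mice and at 126, 116 and 86.1 CPM in RN mice. RN1 and RN2 lay within the RC range, and only RN3 lay below it (log2 fold change -0.14 ± 0.142 SE, edgeR adjusted p = 0.794).

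Trf, transferrin, an iron carrier that oligodendrocytes make, was picked out after its values were seen, because the choroid plexus makes it too. Its level was 1518, 2014 and 1427 CPM in RC mice and 1350, 2084 and 1517 CPM in RN mice. RC2 and RN2 were the 2 high mice, the group means were 1653 ± 316 and 1650 ± 384 CPM (SD, n = 3), and the ratio lay between 0.746 and 1.34 (edgeR adjusted p = 0.998). In the fit that adds the choroid plexus score, its log2 fold change was 0.34 (edgeR adjusted p = 0.738). The others of this group were Gsn (gelsolin, an actin-severing protein), Nfasc (neurofascin, of the paranodal junction), Gpr37 (a receptor of maturing oligodendrocytes) and Evi2a, with adjusted p-values of at least 0.805 in edgeR's quasi-likelihood test. Evi2a lies inside an intron of Nf1 on the opposite strand, and since the use of strand in counting is not given in the sources used here, its count is uncertain.

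The 6 transcription factors stayed within 1.5-fold in their 95% intervals, with a median fitted value of -0.12. Myrf, which switches on myelin genes in cells leaving the precursor stage, was at 151, 178 and 149 CPM in RC mice and at 132, 159 and 117 CPM in RN mice, with RN2 above RC1 and RC3 (log2 fold change -0.23 ± 0.130 SE, edgeR adjusted p = 0.576). Sox10, required along the whole lineage, was at 73.1, 85.3 and 80.7 CPM in RC mice and at 77.6, 73.1 and 64.0 CPM in RN mice (log2 fold change -0.15 ± 0.104 SE, edgeR adjusted p = 0.647). Sox8, its relative, was at 49.1, 64.5 and 53.7 CPM in RC mice and at 54.4, 49.1 and 44.8 CPM in RN mice (log2 fold change -0.17 ± 0.125 SE, edgeR adjusted p = 0.683). For both Sox genes RN1 lay inside the RC range and RN3 below it. Olig2, which specifies the lineage, was at 33.1, 47.3 and 39.1 CPM in RC mice and at 47.8, 38.2 and 41.2 CPM in RN mice, with RN1 highest and RC1 lowest (log2 fold change 0.09 ± 0.147 SE, edgeR adjusted p = 0.885). Its relative Olig1 and Nkx6-2, a homeobox factor of mature oligodendrocytes, had adjusted p-values of 0.894 and 0.887 in edgeR's quasi-likelihood test.

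Among precursor genes 3 of 6 had fitted values above 0 and 3 below (median -0.02). Ptprz1, a receptor tyrosine phosphatase that restrains precursor differentiation, had the smallest p of all members. It was at 309, 273 and 279 CPM in RC mice and at 248, 219 and 230 CPM in RN mice, with means of 287 ± 19.5 and 232 ± 14.5 CPM (SD, n = 3). Every RN mouse lay below every RC mouse, the ratio was 0.809 (between 0.703 and 0.931), and the log2 fold change was -0.31 ± 0.0882 SE, with an unadjusted p = 0.00816 and an adjusted p = 0.208 in edgeR's quasi-likelihood test. DESeq2's Wald test gave an adjusted p = 0.0761. Ptprz1 is expressed in astrocytes too. All 12 astrocyte markers were fitted lower in RN (median log2 fold change -0.43). At an unadjusted p under 0.05, 8 were lower (6.33% of all tested genes), and 9 were lower without overlap of the groups (8.12%). The 12 markers summed to between 6421 and 8246 CPM in RC mice and to between 4496 and 5707 CPM in RN mice. Their part in the Ptprz1 values was not tested. In bulk tissue, fewer cells of a type and less RNA per cell cannot be told apart.

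The promoters of Mobp and Ptprz1 are shown because these 2 members had an unadjusted p under 0.05. The bases are from RefSeq (GRCm38.p6), on the plus strand, from 250 to 51 bases before the transcript start. They lie at chr9:120149492-120149691 and chr6:22875252-22875451. Capitals mark the letters ACAAAG or ACAATG, the core of sites for SOX factors, or their reverse complements CTTTGT and CATTGT.
Mobp: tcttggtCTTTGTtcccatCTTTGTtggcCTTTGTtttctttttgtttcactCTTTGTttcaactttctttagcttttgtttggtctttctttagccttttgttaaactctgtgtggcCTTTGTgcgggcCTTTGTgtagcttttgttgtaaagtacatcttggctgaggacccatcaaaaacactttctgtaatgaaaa
Ptprz1: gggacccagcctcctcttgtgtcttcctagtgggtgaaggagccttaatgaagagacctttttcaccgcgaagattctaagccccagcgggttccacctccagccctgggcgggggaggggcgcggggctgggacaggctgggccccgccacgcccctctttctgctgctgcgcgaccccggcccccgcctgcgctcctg
The Mobp window holds 6 of these matches and the Ptprz1 window holds 0. Windows on 1 chromosome were left out of the member set but kept among those of all genes, so the shares that follow rest on unlike sets. Over 40 promoter windows of the 30 members with an entry on the other chromosomes, 12 (30%) hold at least 1 match. Among windows of all genes, 6977 of 32851 do (21.2%). For 29 of these 40 windows the bases just past the RefSeq start lie in a GENCODE M21 transcript of the gene. A match is a string of letters and not evidence of binding.

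The other precursor genes gave no common direction. Pdgfra, the receptor for the growth factor that drives precursor division, was at 43.2, 55.1 and 39.7 CPM in RC mice and at 60.7, 37.8 and 50.9 CPM in RN mice, with RN1 highest and RN2 lowest (log2 fold change 0.12 ± 0.187 SE, edgeR adjusted p = 0.884). Cspg4, the NG2 proteoglycan, was at 26.7, 30.9 and 24.2 CPM in RC mice and at 21.9, 23.3 and 24.9 CPM in RN mice, with RN3 above RC3 (log2 fold change -0.22 ± 0.126 SE, edgeR adjusted p = 0.569). Pericytes express Cspg4 and fibroblasts Pdgfra. Pericyte and smooth muscle markers (5 of 10 fitted higher) summed to between 396 and 442 CPM in RC and between 371 and 501 CPM in RN. Meningeal and perivascular fibroblast markers (7 of 9 fitted higher) summed to between 97.8 and 232 CPM in RC and between 151 and 352 CPM in RN. Their part in these 2 genes was not tested.

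Tnr, tenascin-R, a matrix protein of perineuronal nets and nodes, was at 121, 95.3 and 105 CPM in RC mice and at 140, 106 and 134 CPM in RN mice. RN1 and RN3 stood above all RC mice and RN2 did not (log2 fold change 0.24 ± 0.133 SE, edgeR adjusted p = 0.560). Neu4, a sialidase, was singled out after its values were seen because of its scatter. It was at 4.26, 5.26 and 6.82 CPM in RC mice and at 7.50, 2.08 and 7.33 CPM in RN mice, so that RN mice were the highest and the lowest of the 6 (log2 fold change 0.05 ± 0.439 SE, edgeR adjusted p = 0.985). Lhfpl3, a membrane protein enriched in precursors, lay between 42.5 and 70.2 CPM over the 6 mice.

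Of the 3 newly formed oligodendrocyte genes, Gpr17 had the widest fitted difference of any member. Gpr17, a receptor that holds cells at the stage before myelination, was at 16.0, 18.7 and 27.6 CPM in RC mice and at 47.5, 13.3 and 41.0 CPM in RN mice. RN1 and RN3 stood above every RC mouse and RN2 below every RC mouse. The means were 20.8 ± 6.08 and 33.9 ± 18.2 CPM (SD, n = 3), and the log2 fold change was 0.71 ± 0.421 SE (edgeR adjusted p = 0.595). The log2 fold change was 1.09 without RN2, 0.39 without RN1, 0.55 without RN3 and 0.27 in the fit that adds the choroid plexus score, with edgeR adjusted p = 0.216, 0.856, 0.855 and 0.938.

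Bcas1, a marker of cells that are just starting to myelinate, was at 451, 558 and 533 CPM in RC mice and at 593, 476 and 405 CPM in RN mice, with RN1 highest and RN3 lowest (log2 fold change -0.06 ± 0.146 SE, edgeR adjusted p = 0.925). Enpp6, a choline-specific phosphodiesterase of newly formed cells, was at 19.8, 15.8 and 15.9 CPM in RC mice and at 17.7, 19.6 and 11.2 CPM in RN mice. RN3 was the lowest mouse and the rest overlapped (log2 fold change -0.08 ± 0.215 SE, edgeR adjusted p = 0.936). The 3 genes of this stage thus differed in which RN mouse was low, RN2 for Gpr17 and RN3 for Bcas1 and Enpp6.

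The same mice stood at the ends for many members. RC2 was the highest of the 6 mice in 22 of 40 members and RN3 the lowest in 26 of 40. Among the 25 mature genes that are not transcription factors, RC2 was highest in 16 and RN3 lowest in 21, and the median deviation from the gene's mean was 0.31 on the log2 scale in RC2 and -0.33 in RN3. RC1, RC3, RN1 and RN2 lay between -0.03 and 0.05 in the same genes. Over all tested genes the medians of the 6 mice lay between 0.00 and 0.01. Choroid plexus markers summed to 3937, 10820 and 651 CPM in RC1 to RC3 and to 353, 395 and 365 CPM in RN1 to RN3. The median deviations of all 40 members were -0.04, 0.26 and -0.01 in RC1 to RC3. In RN1 to RN3 they were 0.06, -0.01 and -0.29. Thalamus markers summed to 1806, 1356 and 2284 CPM in RC1 to RC3 and to 1930, 1540 and 1110 CPM in RN1 to RN3, so RN3 was the lowest of all mice and RC2 the lowest of the RC mice. The part of these tissues in the members' values was not tested beyond the fit with the choroid plexus score.

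**Figure D3:**
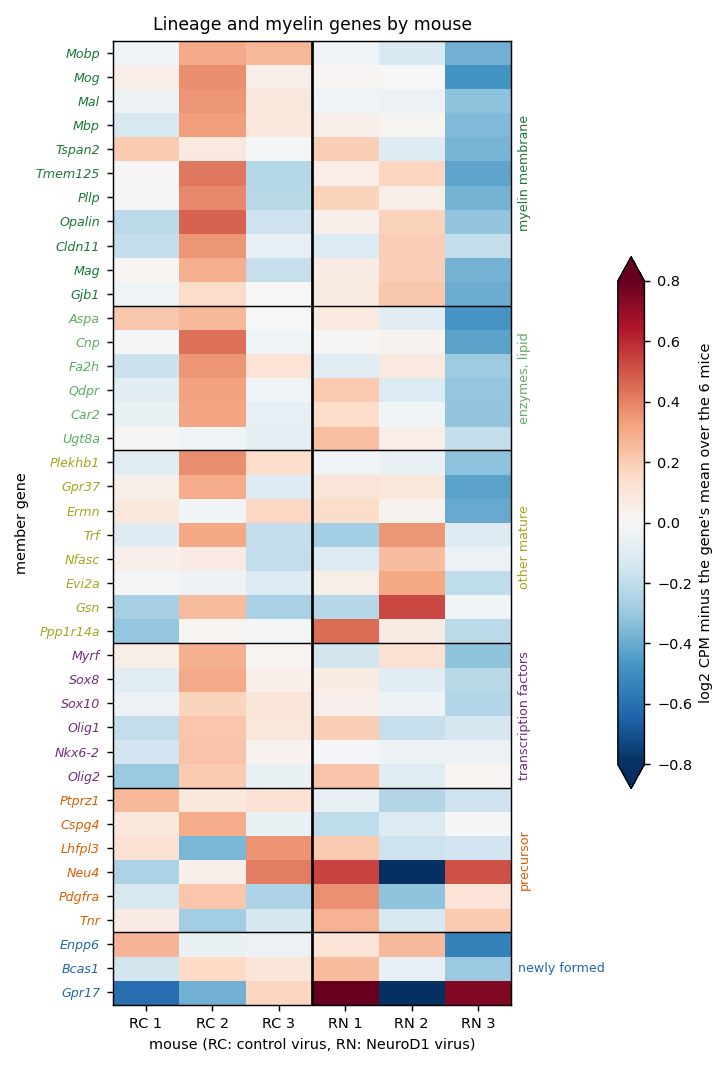
Log2 CPM of each member minus the gene's mean over the 6 mice, by mouse, in rows grouped by role, with red above and blue below the mean and colours that end at 0.8 on either side. RC2 is red and RN3 blue through most mature rows, while Neu4 and Gpr17 are dark blue in RN2 and red in RN1 and RN3.

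Most precursor genes followed another order of mice, while the newly formed genes were split. Within RN, RN2 was the lowest mouse for 6 of the 9 precursor and newly formed genes. It was lowest for 0 of the 25 mature genes, for which RN3 was lowest in 22. Among newly formed genes RN2 was lowest for Gpr17 but not for Bcas1 and Enpp6, and among precursor genes not for Cspg4. Of the transcription factors, Olig1 and Olig2 also had RN2 lowest within RN. RN1 was the highest of all 6 mice in 5 of the 9. The median deviations of the 9 genes were 0.25 in RN1, -0.17 in RN2 and -0.01 in RN3. For the 6 precursor genes they were -0.20 in RN2 and 0.05 in RN3, and for the 3 newly formed genes -0.07 and -0.30. The highest mouse exceeded the lowest by 1.06- to 1.73-fold within RC (median 1.32) and by 1.03- to 3.59-fold within RN (median 1.39), where Neu4 and Gpr17 were the widest. These mouse by mouse values are a description, since 3 mice a group give no test of an order.

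**Figure D4:**
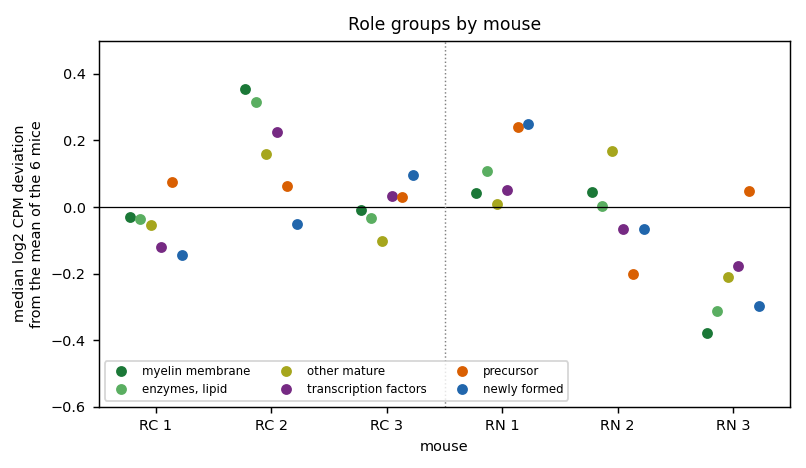
Median deviation from the gene's mean over the 6 mice (log2 CPM), for each role group in each mouse. Myelin membrane genes lie highest in RC2 and lowest in RN3, and precursor genes lie highest in RN1 and lowest in RN2.

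The median fitted log2 fold change of the 40 members moved with these mice. It was -0.10 with all 6 mice, 0.00 without RC2 and -0.01 without RN3, between -0.21 and -0.16 without any 1 of the other 4 mice, and adding the choroid plexus score to the model gave 0.02. The summed choroid plexus level was lower in every RN mouse than in every RC mouse, so that fit tells the score and the group apart only through differences within groups.

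Other genes of the lineage were read from 6 lists with 119 genes, of which 118 were tested. None was called in edgeR's quasi-likelihood test, while 15 were higher and 16 lower at an unadjusted p under 0.05 (5.44% and 6.33% of all tested genes), and 14 stood above and 18 below without overlap (8.18% and 8.12% of all tested genes). DESeq2's Wald test called 2 higher, Klk6 and C1ql1 (0.63% of all genes), and 1 lower, Rlbp1 (0.548%). The fitted log2 fold changes of the 118 genes ran from -1.28 to 1.34, with a median of -0.06.

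Of 21 other genes listed for precursors, 15 had fitted values above 0 (median 0.16). At an unadjusted p under 0.05, 4 were higher (5.44% of all tested genes) and 2 lower (6.33%). C1ql1, a secreted C1q-like protein of precursors, was at 12.8, 9.38 and 9.97 CPM in RC mice and at 25.1, 34.1 and 22.4 CPM in RN mice. Every RN mouse was above every RC mouse (log2 fold change 1.34 ± 0.197 SE, edgeR adjusted p = 0.0630, DESeq2 adjusted p = 2.86e-07). Ccnd1, cyclin D1, which drives entry into the cell cycle in many cell types, was at 119, 122 and 101 CPM in RC mice and at 181, 251 and 189 CPM in RN mice, again without overlap (log2 fold change 0.86 ± 0.141 SE, edgeR adjusted p = 0.0696).

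The 2 lower genes of that list were Rlbp1 and Gpr37l1. Rlbp1, a retinoid-binding protein, was at 12.3, 23.0 and 14.4 CPM in RC mice and at 7.79, 6.95 and 5.76 CPM in RN mice (log2 fold change -1.28 ± 0.252 SE, edgeR adjusted p = 0.109). Gpr37l1, a receptor that astrocytes also express, was at 296, 375 and 329 CPM in RC mice and at 200, 244 and 241 CPM in RN mice (log2 fold change -0.55 ± 0.117 SE, edgeR adjusted p = 0.126). Both were lower in all RN mice, and the summed astrocyte markers given above were too. The part of astrocytes in the values of these 2 genes was not tested.

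In the lists of mature and injury-responsive oligodendrocytes, Klk6, a secreted serine protease of oligodendrocytes, stood apart. It was at 48.2, 73.4 and 48.7 CPM in RC mice and at 113, 152 and 83.8 CPM in RN mice. All RN mice were above all RC mice (log2 fold change 1.03 ± 0.238 SE, edgeR adjusted p = 0.137), and with the replicate number as a block edgeR called it (log2 fold change 1.02, adjusted p = 0.0473). Serpina3n, an injury-induced protease inhibitor of astrocytes and oligodendrocytes, was at 415, 501 and 462 CPM in RC mice and at 409, 1387 and 879 CPM in RN mice, with RN1 below the RC mice (log2 fold change 0.96 ± 0.360 SE, edgeR adjusted p = 0.341, and 0.48 without RN2). Of the 15 injury-responsive genes, 3 were higher (5.44% of all tested genes) and 0 lower (6.33%) at an unadjusted p under 0.05. The tetraspanin Cd63 (log2 fold change 0.38 ± 0.161 SE) and complement C4b (-0.47 ± 0.260 SE) overlapped between groups, and reads of C4b are hard to tell from those of its near-identical neighbour C4a.

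Of the 33 other mature genes, 4 were higher and 4 lower at an unadjusted p under 0.05 (median -0.11). Over all tested genes the shares were 5.44% higher and 6.33% lower. Tmem98, a membrane protein that binds Myrf, was at 35.0, 50.6 and 37.3 CPM in RC mice and at 25.5, 28.4 and 23.9 CPM in RN mice, without overlap (log2 fold change -0.66 ± 0.155 SE, edgeR adjusted p = 0.139). Anln, anillin, a septin-binding scaffold of myelin, and Sec14l5 were lower in all RN mice as well (log2 fold changes -0.41 ± 0.109 and -0.53 ± 0.160 SE, edgeR adjusted p = 0.185 and 0.225).

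Of 11 genes of galactolipid and very long chain lipid synthesis, 10 had fitted values below 0 (median -0.26), and 5 were lower at an unadjusted p under 0.05 (6.33% of all tested genes) and 5 without overlap (8.12%). None was called by edgeR or DESeq2 at the 2-fold rule. Plaat3, a phospholipase, was at 87.8, 102 and 85.1 CPM in RC mice and at 67.9, 66.9 and 68.6 CPM in RN mice (log2 fold change -0.43 ± 0.0929 SE, edgeR adjusted p = 0.127). The desaturase Fads2 (-0.34 ± 0.0878 SE) and the fatty acid elongases Elovl5 (-0.28 ± 0.0838 SE) and Elovl7 (-0.66 ± 0.207 SE) were lower in all RN mice, with edgeR adjusted p = 0.173, 0.218 and 0.236. DESeq2 adjusted p was 0.00955 for Plaat3 and 0.0298 for Fads2. Adding the choroid plexus score gave log2 fold changes of -0.26 for Plaat3, -0.21 for Fads2 and -0.07 for Elovl7, and Elovl7 was at -0.38 without RC2. The astrocyte markers given above (12 of 12 fitted lower) moved the same way, and their part here was not tested. Most of these enzymes act in other cells too, so the list is not particular to myelin.

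At an unadjusted p under 0.05, the shares over all tested genes were 5.44% higher and 6.33% lower. Of 17 tested genes of the newly formed and committed stages, 1 was higher and 3 were lower at that threshold. Besides Gpr37l1 these were Prom1, prominin, with a log2 fold change of 0.51 ± 0.182 SE, and Cnksr3 (-0.34 ± 0.134 SE) and the calcium channel Itpr2 (-0.25 ± 0.0988 SE), with edgeR adjusted p-values of 0.317, 0.364 and 0.372. Of 25 signals that act on the lineage, 4 were higher and 3 lower at the same threshold, beside the same shares over all tested genes. Cntf, ciliary neurotrophic factor, was lower in all RN mice (log2 fold change -0.82 ± 0.256 SE, edgeR adjusted p = 0.235). Igf1, insulin-like growth factor 1 (0.50 ± 0.156 SE), the death receptor Tnfrsf21 (0.25 ± 0.0824 SE) and the semaphorin Sema4d (0.31 ± 0.109 SE) were higher in all RN mice, with edgeR adjusted p = 0.236, 0.261 and 0.299. Microglia and macrophage markers (8 of 12 fitted higher) summed to between 2147 and 2358 CPM in RC and between 2006 and 2865 CPM in RN. The part of other cells in the values of these signals was not tested.

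**Figure D5:**
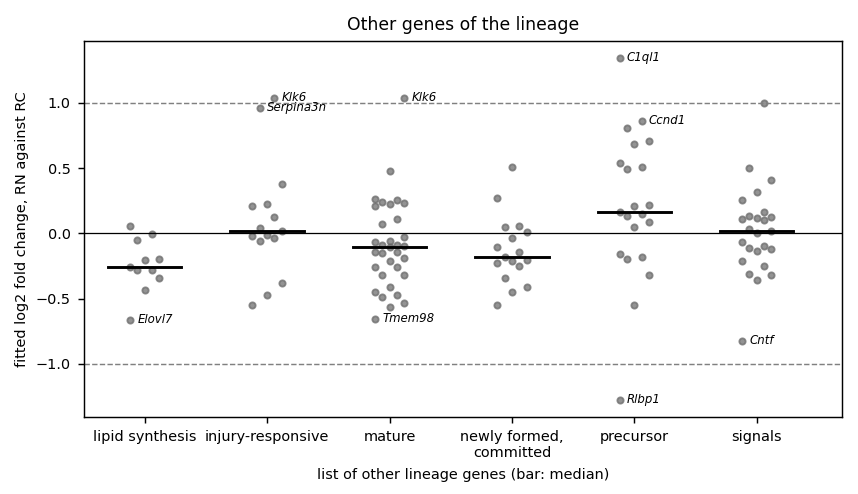
Fitted log2 fold change, RN against RC, of the tested genes in the 6 lists of other lineage genes (points) with each list's median (bars), and dashed lines at 2-fold. C1ql1 lies above 2-fold, Klk6 just above it in 2 lists and Rlbp1 below it.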

How the data were processed

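Bulk RNA-seq of thalamus tissue from 3 RC and 3 RN mice was analysed, grouped by their labels. The authors deposited counts per gene as whole numbers, with no normalization and 1 column per mouse. The submitters' processing notes name fastp 0.18.0, FastQC, HISAT2 2.2.4, RSEM 1.2.19 and GRCm39. The annotation and the use of strand are not given in the sources used here, and the counts may be rounded estimates. Libraries were prepared with the NEBNext Ultra RNA kit and sequenced on a NovaSeq.

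Genes were filtered with filterByExpr (minimum count 10), scaled by TMM and tested with edgeR 4.0.16 (quasi-likelihood, group alone) in R 4.3.3, with Benjamini-Hochberg adjustment over 14956 genes. Calls needed an adjusted p under 0.05 and a change of at least 2-fold. Fitted fold changes used a prior count of 0.125, and log2 CPM a prior count of 2. Intervals are 95% intervals of the fit. The biological coefficient of variation was 17.4%. No 2 libraries agreed within sampling noise (chi-square per degree of freedom of at least 15.8).

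Same-numbered RC and RN mice deviated together (correlations of deviations from the group means 0.173, 0.120 and 0.209 over genes), as did RC1 with RN2 (0.156), so the replicate number was tried as a block, although the labels do not say what a number marks. The other alternatives were DESeq2 1.42.0, its size factors, other filters, a choroid plexus score as a covariate and each mouse left out. The fits were checked on simulated counts.

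Members and lists were chosen with earlier results of these data known. The 10 members Mbp, Mog, Sox10, Myrf, Olig2, Pdgfra, Cspg4, Gpr17, Bcas1 and Enpp6 were always named, with the 3 of smallest p in each role group and up to 4 in each other list. Exon lengths came from GENCODE M21 (277 of 277 list genes), for levels per kilobase. Of the list entries, 281 matched by symbol and 2 by synonym.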

Additional observations from a re-analysis of the deposited data

How the results depend on the processing

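In each alternative run, 0 of 40 members were called in either direction. The median fitted log2 fold change of the members was -0.10 with all mice, -0.11 with the replicate block and 0.02 with the choroid plexus covariate (0.08 for the 25 mature genes), and it ran from -0.21 to 0.00 when each mouse was left out, with 0.00 without RC2 and -0.01 without RN3. Members whose groups did not overlap numbered 0 to 3 higher and 2 to 9 lower without 1 mouse. The counts were 9 lower without RC1, 7 without RN1, 5 without RN2 and 4 without RC3, and 3 higher without RN2 or RN3. Fewer mice overlap less often, and the shares over all genes in these fits are not given here. These counts are therefore no result about the members. Members at an unadjusted p under 0.05, 0 higher and 2 lower with all mice, numbered 1 higher and 6 lower with the replicate block, 0 and 4 with DESeq2, and 0 and 1 with the choroid plexus covariate. Without 1 mouse they numbered 0 to 2 higher (2 without RN2, 1 without RC1) and 1 to 5 lower (5 without RC1, 4 without RN1, 1 without RC2, RC3 or RN3). For the alternative runs, the shares over all genes at this threshold are not given here either. Of the other lineage genes, DESeq2 called 2 higher (0.63% of all genes) and 1 lower (0.548%). In edgeR, 1 was called higher (C1ql1, adjusted p = 0.0352) without a filter on low counts and 1 higher (Klk6) with the replicate block. The share over all genes without the filter is not given here. Over all genes the replicate block called 0.147% and the fit without it 0.0735%, and among the genes named here it changed no other call.

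Fitted directions turned for some named genes, none of which was called. With the choroid plexus covariate the log2 fold changes were 0.015 for Cnp, 0.041 for Cspg4, 0.34 for Trf, -0.25 for Neu4 and 0.027 for C4b. Trf was at 0.00058 with DESeq2 and at 0.00047 with its size factors in edgeR, and Neu4 was at -0.085 with the replicate block. Without 1 mouse the ranges were -0.25 to 0.010 for Ermn, -0.21 to 0.16 for Trf, -0.027 to 0.23 for Olig2, -0.051 to 0.28 for Pdgfra, -0.21 to 0.44 for Neu4, -0.22 to 0.057 for Bcas1 and -0.25 to 0.12 for Enpp6. Without the 2-fold rule, DESeq2 put 8 of the other lineage genes named here past an adjusted p of 0.05. EdgeR's fit of group alone put none past it with the filter on low counts, and 2 without that filter. These genes were named for the smallest p of their lists in these same data. The DESeq2 share over all genes without the 2-fold rule is not given here. These counts are therefore no result about the lineage. With 3 mice a group, p-values set the group difference against the spread among these mice only, with each gene's spread drawn toward the trend over all genes.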
